A study of Gallus gallus with 12 samples.

Results

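The miR-92 hairpins and miR-363 were followed through sorted cells of early chicken embryos. They were taken by name from the chicken-aligned table, as gga-mir-92-1, gga-mir-92-2 and gga-mir-363, which are 3 of its 850 hairpins. Their human-named counterparts hsa-mir-92a-1, hsa-mir-92a-2 and hsa-mir-363, 3 of 1913 hairpins in the human-aligned table of the same libraries, served as a check. Every one of these 6 hairpins had at least 7 reads in every library and passed the filter for testing, a mean of at least 10 normalized reads, which 132 chicken-aligned and 114 human-aligned hairpins passed in all.

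A microRNA is cut from a hairpin precursor and pairs with messenger RNAs mainly through its seed, bases 2 to 8 of the mature strand, and messages paired in this way are repressed or degraded. miR-92 and miR-363 share their seed with miR-25, miR-32 and miR-367, so their predicted targets overlap, although they are made from several genomic clusters. In vertebrates miR-92 copies belong to the miR-17-92 cluster and its paralogue miR-106a-363, which are transcribed as long polycistronic precursors. Of these, miR-17-92 is abundant in embryonic and dividing cells and is known in mouse as a regulator of proliferation and survival. miR-367 instead belongs to the miR-302 cluster, a marker of pluripotent and early embryonic cells, which is the cluster that was manipulated in these embryos. In the RefSeq annotation of assembly GRCg7b, gga-mir-92-1 was next to MIR19B1 on chromosome 1, at the end of the run that also holds miR-20a, miR-19a, miR-18a and miR-17. gga-mir-363 and gga-mir-92-2 were neighbours on chromosome 4, followed by miR-19b-2, miR-20b, miR-18b and miR-106a.

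The study sorted cells from chicken embryos grown to Hamburger-Hamilton stages 4 to 5, the gastrula. All embryos had been electroporated with a GFP vector. In the knockdown arm they also received constructs to delete the chick miR-302, which the samples' labels call a knock-down, and in the overexpression arm constructs to raise human miR-302. In each arm GFP-positive (GFP+) cells, which had taken up the vector, were compared with GFP-negative (GFP-) cells, which gave 4 groups of 3 small RNA libraries. All 12 libraries came from electroporated embryos, the sources used here do not give the promoters of the constructs or the pooling of embryos, and nothing states that replicates came from separate embryos, so p-values measure the spread between these libraries, which may be technical.

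Depth differed between the groups. The hairpins of the chicken-aligned table held 49276 to 82211 reads in the knockdown GFP+ libraries and 277633 to 435716 in the knockdown GFP- libraries, but 1292 to 3856 in the overexpression GFP+ libraries and 7546 to 277637 in the overexpression GFP- libraries. The deposited unit, a normalized read, is a read divided by 1 factor per library, and a single read was worth 6.68, 24.4 and 15.9 normalized reads in overexpression GFP+ replicates 1 to 3. The small RNAs of other cell states also differed between sorted fractions. The let-7 list, 10 of 13 hairpins tested and 2 at 0 in every library, held 7.67 to 10.6% of reads in knockdown GFP+ and 0.708 to 1.49% in knockdown GFP- cells, and 3.95 to 6.87% against 0.504 to 1.05% in the overexpression arm. The liver and gut list (miR-122, miR-192, miR-194 and miR-375), 3 of 7 hairpins tested and 3 at 0 throughout, held 5.81 to 8.14% against 0.301 to 1.07% in the knockdown arm and 3.02 to 6.93% against 0.225 to 0.310% in the overexpression arm. miR-126 of the endothelium went the other way, with 32.9 to 58.5 normalized reads in knockdown GFP+ and 98.3 to 159 in knockdown GFP- cells, and 26.7 to 73.1 against 265 to 464 in the overexpression arm. None of the 4 blood hairpins reached the filter. The manipulated cluster itself, miR-302 with miR-367, held 30.4 to 41.9% of reads in knockdown GFP+ and 40.7 to 48.1% in knockdown GFP- cells, which overlap, and 15.6 to 26.9% in overexpression GFP+ against 21.0 to 41.6% in overexpression GFP- cells. Its share of human-aligned reads, 14.6 to 24.9% in overexpression GFP+ and 14.0 to 33.2% in overexpression GFP- cells, overlapped as well, so the summed cluster does not show the overexpression, and the groups are called by their labels throughout. In bulk samples fewer cells of a type and less RNA per cell cannot be told apart, and the part of these shifts in the results below was not tested.

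miR-92 was among the most abundant microRNAs of these cells. gga-mir-92-2 had the highest mean of all hairpins, 17.1% of the summed means over the 12 libraries, ahead of 3 hairpins of the miR-302 cluster. Next came gga-mir-92-1, at position 5, with 7.46% and ranks between 2 and 6. gga-mir-92-2 ranked 1 in all 6 overexpression libraries and between 1 and 3 in the knockdown libraries. gga-mir-363 was much lower, with ranks between 12 and 26.

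gga-mir-92-2 stood at 5249, 6494 and 6402 normalized reads in knockdown GFP+ replicates 1 to 3 and at 6084, 7796 and 6169 in knockdown GFP- replicates. With overexpression it stood at 5046, 7093 and 5868 in GFP+ and at 5755, 7955 and 8222 in GFP- cells. The GFP+ and GFP- ranges overlapped in both arms. The group means ran from 7310.5 ± 1354 (SD, n = 3) in overexpression GFP- cells through 6683 ± 965 in knockdown GFP- and 6048 ± 694 in knockdown GFP+ to 6002 ± 1029.9 in overexpression GFP+ cells, and each neighbouring pair in this order overlapped.

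gga-mir-92-1 stood at 2267, 2619 and 2531 normalized reads in knockdown GFP+ and at 2232, 3000.1 and 2518 in knockdown GFP- cells. The overexpression values were 2988, 3924 and 2569 in GFP+ and 3012, 3275 and 3227 in GFP- cells. Again the GFP+ and GFP- ranges overlapped in both arms. The means were ordered overexpression GFP- (3172 ± 140.0), overexpression GFP+ (3160.3 ± 694), knockdown GFP- (2583 ± 388) and knockdown GFP+ (2472 ± 183), with every neighbouring pair overlapping.

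gga-mir-363 showed another picture. It stood at 274, 356 and 255 normalized reads in knockdown GFP+ replicates 1 to 3 and at 521, 569.5 and 643 in knockdown GFP- replicates. Its overexpression values were 287, 219 and 174 in GFP+ cells, which rest on 43, 9 and 11 reads, and 609.5, 465 and 702 in GFP- cells. All 3 GFP+ libraries lay below all 3 GFP- libraries in each arm. The same held for 26.5% of the 132 tested hairpins in the knockdown and 22% in the overexpression arm. The group means fell into a higher GFP- level, 592 ± 119.5 in the overexpression and 578 ± 61.3 in the knockdown arm, and a lower GFP+ level, 295 ± 53.9 in the knockdown and 227 ± 56.9 in the overexpression arm. Within each level the arms overlapped, and between the levels they did not.

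**Figure D1:**
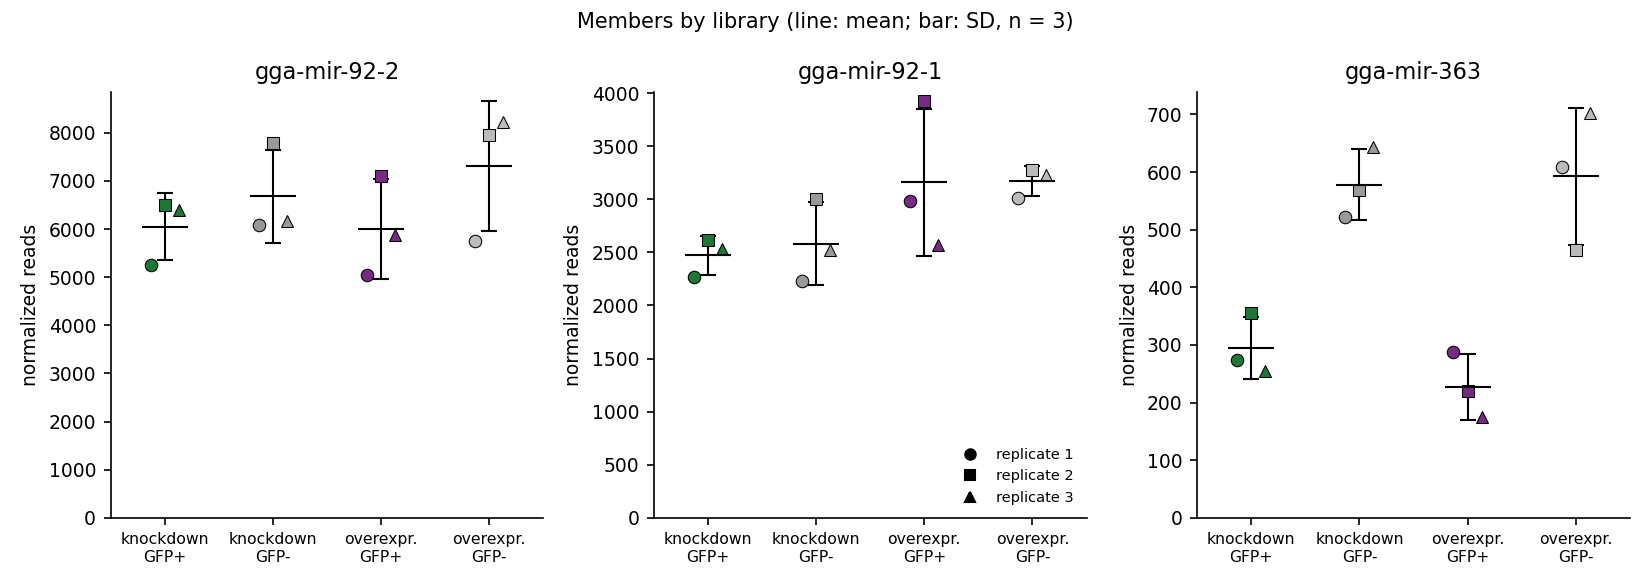
Normalized reads of the 3 hairpins (vertical axes, linear, from 0) in each of the 4 groups, with 1 point per library, the mean as a line and the SD as a bar (n = 3). The miR-92 copies overlap between GFP+ and GFP- cells, whereas the GFP+ points of gga-mir-363 (174 to 356) all lie below its GFP- points (465 to 702). Within an arm, 26.5% (knockdown) and 22% (overexpression) of the 132 tested hairpins had all GFP+ points below all GFP- points.

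The first comparison asked which microRNAs differed in GFP+ cells that received the constructs deleting chick miR-302. gga-mir-363 was lower in these cells, with a log2 fold change of -0.98 (SE 0.27) and an adjusted p of 0.0424 (limma on log2 values with a pseudocount of 1, Benjamini-Hochberg over 132 hairpins). On the linear scale the fold was 0.508, with a 95% interval of 0.339 to 0.761. The miR-92 copies did not pass, at a fold of 0.962 (0.714 to 1.30) for gga-mir-92-1 and 0.907 (0.664 to 1.24) for gga-mir-92-2, with limma adjusted p-values of 0.982 and 0.891. So 1 of 3 members was called, as a fall. Falls were called for 0.758% of all tested hairpins (gga-mir-363 was the 1 called hairpin) and calls in either direction for 10.6%. Groups that did not overlap, with GFP+ lower, were more frequent, at 26.5% of hairpins, and had 1 of 3 members. With the replicate number as a block the adjusted p of gga-mir-363 was 0.0912 (limma). It was also above 0.05 with edgeR (0.0880), with scaling by TMM or by library totals (0.137 each), with no filter on low values (0.289) and without any 1 of 5 of the 6 knockdown libraries (0.0801 to 0.160), the exception being GFP+ replicate 2.

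The second comparison asked the same of GFP+ cells of the arm labelled as overexpressing human miR-302. gga-mir-363 was lower here too, with a log2 fold change of -1.39 (SE 0.27) and a limma adjusted p of 0.00352. The fold was 0.382, with a 95% interval of 0.255 to 0.573. gga-mir-92-1 had a fold of 0.982 (0.728 to 1.32) and gga-mir-92-2 of 0.823 (0.603 to 1.12), with limma adjusted p-values of 0.915 and 0.315. Thus 1 of 3 members fell, against a background of 9.85% of tested hairpins called as falls and 18.9% called in either direction. Counts were simulated with the depths of these libraries and a set dispersion of 0.05 that was not estimated from the data. On these counts limma called 9.58% of unchanged hairpins in this arm and 0% in the knockdown arm. The edgeR figure for this arm was 0.324%. For this reason each chicken-aligned hairpin named as called by the main limma fit is given with its edgeR value. Calls under other settings and the shares of all hairpins called by limma are not all given with one. Groups with all GFP+ libraries below all GFP- libraries made up 22% of hairpins and had the same 1 of 3 members, gga-mir-363. The call on gga-mir-363 was kept with the replicate block (adjusted p = 0.0114, limma), with edgeR (0.0152, log2 fold -1.31) and without any 1 library (0.00213 to 0.0246), and was lost with scaling by library totals (0.0571).

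The median hairpin was itself below 0 in these comparisons, at -0.17 on the log2 scale in the knockdown and -0.67 in the overexpression arm. TMM scaling moved the first median to -0.02, and scaling by totals moved the second to -0.30. A scaling moves all hairpins together, so the distance of a hairpin from the median is nearly fixed by construction. That distance was -0.80 for gga-mir-363 in the knockdown and -0.72 in the overexpression arm. gga-mir-92-2 stood at 0.03 relative to the median in the knockdown and at 0.39 in the overexpression arm, and gga-mir-92-1 at 0.12 and 0.64. The log2 folds of both miR-92 copies lay near 0 and took the other sign under some scalings, so no direction is given for them.

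The GFP effects of the arms were then set against each other. For gga-mir-363 the overexpression effect minus the knockdown effect was -0.41 on the log2 scale (SE 0.38, limma adjusted p = 0.818), for gga-mir-92-2 it was -0.14 (SE 0.29, 0.889) and for gga-mir-92-1 it was 0.03 (SE 0.28, 0.961). None of the 3 members was called, as was 0% of tested hairpins by limma and by edgeR, with 9 of 132 at an unadjusted p under 0.05. For gga-mir-363 the 95% interval of the ratio of the effects ran from 0.424 to 1.33.

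GFP- cells of the overexpression arm were also compared with GFP- cells of the knockdown arm. gga-mir-363 was at a fold of 1.01 (0.676 to 1.52), gga-mir-92-2 at 1.09 (0.796 to 1.49) and gga-mir-92-1 at 1.24 (0.917 to 1.67), with limma adjusted p-values of 0.989, 0.989 and 0.813. No member was called, nor any of the 132 hairpins, 10 of which had an unadjusted p under 0.05 in limma, while edgeR called 0 and DESeq2 8. The 3 overexpression values of gga-mir-92-1 (3012 to 3275) lay above the 3 knockdown values (2232 to 3000.1), as did those of 9.09% of hairpins. In GFP+ cells the same contrast between arms gave folds of 0.763 (0.509 to 1.14) for gga-mir-363, 0.987 (0.723 to 1.35) for gga-mir-92-2 and 1.26 (0.935 to 1.70) for gga-mir-92-1. None of these was called (limma adjusted p = 0.357, 0.952 and 0.282), against 6.06% of hairpins. Arm, and whatever differed in handling and depth between the arms, cannot be told apart in these contrasts.

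A ratio within a library does not depend on its normalization factor, so miR-363 was next read against miR-92 in each library. Its share of the 3 members' reads was 3.51% (95% Wilson interval 3.15 to 3.92), 3.76% (3.51 to 4.03) and 2.77% (2.53 to 3.04) in knockdown GFP+ replicates 1 to 3. It was 5.90% (5.72 to 6.09), 5.01% (4.85 to 5.17) and 6.89% (6.73 to 7.06) in knockdown GFP- replicates. No interval of a GFP+ library reached one of a GFP- library. For overexpression libraries the share was 3.45% (2.57 to 4.62), 1.95% (1.03 to 3.67) and 2.03% (1.13 to 3.59) in GFP+ cells and 6.50% (5.58 to 7.56), 3.98% (3.67 to 4.31) and 5.78% (5.63 to 5.94) in GFP- cells. The values again did not overlap, although the counting interval of GFP+ replicate 1 spans that of GFP- replicate 2. These intervals cover counting error only.

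**Figure D2:**
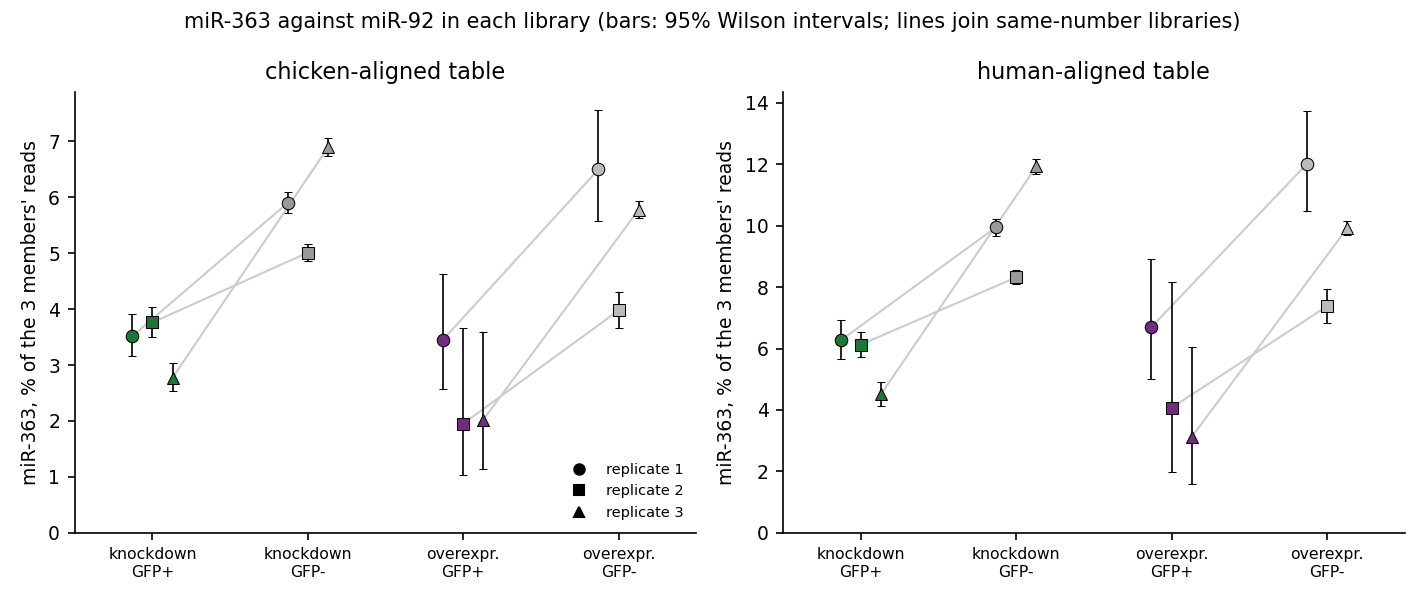
Reads of miR-363 as a percent of the reads of miR-363 and both miR-92 copies (vertical axes, from 0) in each library, in the chicken-aligned (left) and human-aligned (right) tables. Bars are 95% Wilson intervals, and lines join libraries with the same replicate number. All 6 lines go up from GFP+ to GFP- cells in both tables.

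Group means were 3.35% ± 0.51 (SD, n = 3) in knockdown GFP+ and 5.93% ± 0.94 in knockdown GFP- cells, and 2.48% ± 0.85 in overexpression GFP+ and 5.42% ± 1.30 in overexpression GFP- cells. Put the other way, GFP- cells held 16.1 ± 2.73 and 18.3 ± 5.17 miR-92 reads for each miR-363 read in the knockdown and overexpression arms, and GFP+ cells held 29.4 ± 5.01 and 42.2 ± 12.4. The log2 ratio of miR-363 to miR-92 was lower in GFP+ cells by -0.86 (SE 0.20) in the knockdown and by -1.19 (SE 0.35) in the overexpression arm. Each arm gave the smallest p that 3 libraries against 3 allow (exact two-sided permutation test, p = 0.1). With GFP labels permuted within both arms the mean difference was -1.03 (SE 0.20), again at the smallest p possible (exact, p = 0.005), and 0.075 after Benjamini-Hochberg adjustment over the 15 ratio tests made, which does not pass 0.05. GFP+ was lower in 6 of 6 same-number pairs, by log2 differences between -0.43 (knockdown replicate 2) and -1.57 (overexpression replicate 3), and an exact sign-flip test over these pairs gave p = 0.03125, its smallest. For this ratio the difference between the effects of the arms was -0.33 (SE 0.33, exact permutation p = 0.4). Between the GFP- cells of the arms it was -0.16 (SE 0.27, p = 0.6, exact). The smallest p of these tests is also 0.1, so they cannot decide whether the arms differ.

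Set against all hairpins with a read in every library, each also taken as a ratio to miR-92, the difference of miR-363 had 7 of 75 hairpins below it in the knockdown and 6 of 75 in the overexpression arm. The median hairpin of these 75 was at 0.01 and 0.04 on the log2 scale. Ratios with all GFP+ libraries below all GFP- libraries made up 17.3% and 14.7% of them. Hairpins lacking a read in some library are not among the 75, including those not read in overexpression GFP+ cells. Over all 132 tested hairpins, gga-mir-363 ranked 16 by limma log2 fold in the knockdown arm, counted from the largest fall. In the overexpression arm it ranked 40, so many hairpins fell further there.

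The proportion of the miR-92 copies was also read within each library. gga-mir-92-1 supplied 30.2, 28.7 and 28.3% of the miR-92 reads in knockdown GFP+ replicates 1 to 3 and 26.8, 27.8 and 29.0% in knockdown GFP- replicates. With overexpression it supplied 37.2, 35.6 and 30.5% in GFP+ and 34.4, 29.2 and 28.2% in GFP- cells. All ranges overlapped between GFP+ and GFP- cells of an arm, while the 3 overexpression GFP+ shares lay above the 3 knockdown GFP+ shares, a difference between arms that was not tested. The log2 ratio of gga-mir-92-1 to gga-mir-92-2 was higher in GFP+ cells by 0.09 (SE 0.06, exact permutation p = 0.3) in the knockdown and by 0.25 (SE 0.18, exact p = 0.2) in the overexpression arm. Over both arms the difference was 0.17 (SE 0.10, exact p = 0.105, adjusted 0.263), with the larger share in GFP+ cells in 5 of 6 pairs. The difference between these effects was 0.17 (SE 0.12, exact p = 0.3) and that between the GFP- cells of the arms 0.18 (SE 0.14, exact p = 0.2). With 20 relabelings the smallest p of these tests is 0.1, so they cannot decide whether the arms differ. The mature strands of the miR-92 copies are near-identical, and the sources used here do not say how reads shared by both hairpins were assigned. The copy ratio is therefore uncertain as a measure of the loci. The levels of the copies, the summed share of the 3 hairpins and the size of the miR-363 to miR-92 ratio carry this uncertainty too.

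Together the 3 hairpins held a large part of each library. They made up 18.2, 24.2 and 20.5% of hairpin reads in knockdown GFP+ replicates 1 to 3 and 19.1, 26.0 and 21.4% in knockdown GFP- replicates. The overexpression shares were 32.3, 35.7 and 30.4% in GFP+ and 31.8, 27.1 and 30.6% in GFP- cells. GFP+ and GFP- shares overlapped in each arm, while every overexpression library lay above every knockdown library. As summed normalized reads the arms overlapped, at 7790 to 11366 in the knockdown and 8321 to 12151 in the overexpression arm. The log2 share differed between GFP+ and GFP- cells by -0.08 (SE 0.18, exact permutation p = 0.6) in the knockdown arm, by 0.13 (SE 0.10, exact p = 0.3) in the overexpression arm and by 0.03 (SE 0.10, exact p = 0.78) over both. In GFP- cells the share was higher in the overexpression arm by 0.44 on the log2 scale (SE 0.15), a factor of 1.35, at the smallest exact p of 0.1 (adjusted 0.263). The median of the 132 tested hairpins was itself at 0.29 in this contrast with scaling by library totals. The difference of the GFP effects of the arms was 0.21 (SE 0.13, exact p = 0.1). A share moves with everything else in the library. Without the miR-302 and miR-367 hairpins in the denominator the log2 difference between GFP+ and GFP- cells over both arms was -0.16, and without let-7 and miR-122 it was 0.15 in the knockdown arm. Shares of single libraries without such hairpins are not given, so the separation of the arms is described for the full denominator only.

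**Figure D3:**
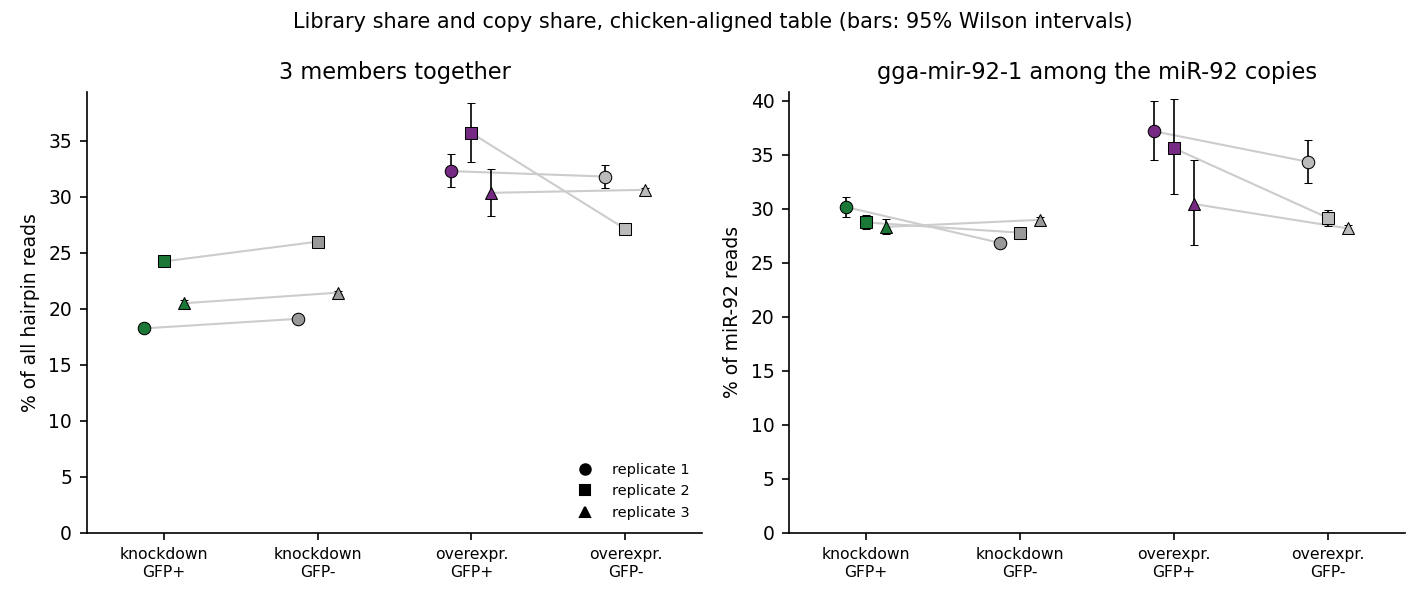
Left, the 3 hairpins as a percent of all hairpin reads; right, gga-mir-92-1 as a percent of the reads of both miR-92 copies, in each chicken-aligned library (axes from 0; bars are 95% Wilson intervals; lines join the same replicate number). The overexpression libraries (27.1 to 35.7%) lie above the knockdown libraries (18.2 to 26.0%) on the left, and the copy share runs from 26.8 to 37.2% on the right. As summed normalized reads the arms overlapped.

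The other hairpins of the clusters were far lower than miR-92. Without the members, the 5 hairpins of miR-17-92 summed to 272 to 310 normalized reads in knockdown GFP- cells and the 4 of miR-106a-363 to 267 to 329. The corresponding sums in knockdown GFP+ cells were 175 to 186 and 141 to 234, and neither range reached its GFP- counterpart. All 9 hairpins were tested in the knockdown arm. Their log2 folds were below 0 in 9 of 9 cases, with a median of -0.73 against -0.17 over all 132 hairpins. Of all 132, at least 79 were below 0. gga-mir-19b and gga-mir-19b-2 had similar reads, 38, 41 and 43 against 37, 43 and 42 in knockdown GFP+ cells, and may not be separate cases. Among the 9, 0 were called by limma (with an unadjusted p under 0.05 in 0 of 9) and 1 by edgeR, which called falls for 3.03% of all hairpins. On simulated counts limma called 12.9% of log2 changes of 1 in this arm and edgeR 83.3%. The spread in that simulation was set (dispersion 0.05) and not estimated from these libraries, so it does not measure the power of limma here. The direction was 9 of 9 under TMM and total scaling as well, and 8 of 9 by edgeR or without knockdown GFP+ replicate 1 or 2. limma called 1 of 9 when only the knockdown groups were fitted or when overexpression GFP+ replicate 2 was left out of the fit. The share of all hairpins called in these settings is not given, so this count is a description only. GFP+ lay below GFP- without overlap for 5 of 9 (gga-mir-18a, gga-mir-19b, gga-mir-20a, gga-mir-19b-2 and gga-mir-20b), against 26.5% of all hairpins.

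gga-mir-20a, of the same seed family as miR-17 and miR-106, stood at 24.3, 23.8 and 22.9 normalized reads in knockdown GFP+ and at 61.0, 73.7 and 57.0 in knockdown GFP- cells. The libraries did not overlap, and the log2 fold was -1.39 (limma adjusted p = 0.531, edgeR adjusted p = 0.0364). gga-mir-19b-2 stood at 32.1, 20.4 and 23.4 against 38.4, 43.6 and 47.8, again without overlap, a log2 fold of -0.77 (limma adjusted p = 0.397).

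In the overexpression arm the 9 hairpins were again below 0 in 9 of 9 cases by limma, or in 7 of 9 with scaling by library totals and 8 of 9 without GFP+ replicate 1 or 2 or GFP- replicate 3, with a median of -1.11 against -0.67 over all hairpins. Of all 132 tested hairpins, at least 89 were below 0 by limma in this arm. GFP+ was below GFP- without overlap for 4 of 9, against 22% of all hairpins. Depth limited these values: 5 of the 9 had no read in at least 1 GFP+ library. The call by limma was gga-mir-17 (adjusted p = 0.0120), which had 2, 0 and 0 reads in GFP+ and 10, 30 and 316 in GFP- replicates 1 to 3. As a share of pooled hairpin reads its ratio was 0.274, with an exact 95% counting interval of 0.0330 to 0.996, and edgeR did not call it (adjusted p = 0.0795). edgeR instead called gga-mir-20a (adjusted p = 0.0232, with falls at 12.1% of all hairpins), at 13.4, 0 and 31.7 normalized reads (2, 0 and 2 reads) in GFP+ and 54.7, 59.0 and 75.8 in GFP- cells, for which the limma adjusted p was 0.0503. The 1 limma call became 2 with the replicate block and 3 with TMM scaling. It became 0 without GFP- replicate 3 or when only the overexpression groups were fitted, and 2 without knockdown GFP+ replicate 2 or without any 1 of the overexpression GFP+ libraries. The share of all hairpins called in these settings is not given, so these counts are a description only. gga-mir-106 was read in every library, at 66.8, 73.1 and 79.3 normalized reads in GFP+ and 129, 148 and 201 in GFP- cells, a log2 fold of -1.09 (limma adjusted p = 0.0555).

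**Figure D4:**
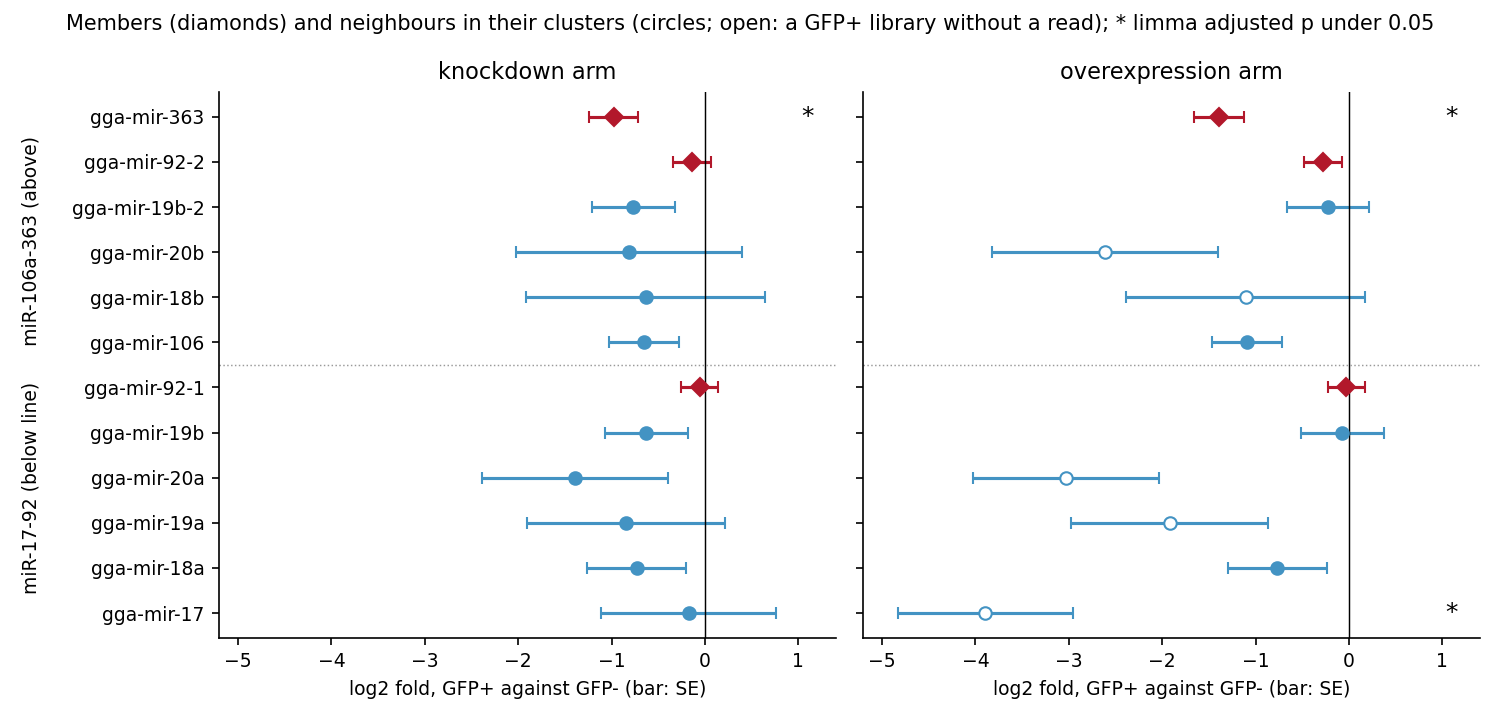
Log2 fold change of GFP+ against GFP- cells with its SE (horizontal axes) for the 3 members (diamonds) and the 9 other hairpins of their clusters (circles) in each arm, in genomic order within a cluster. gga-mir-363 lies at -0.98 and -1.39 and the miR-92 copies between -0.28 and -0.03; the latter change sign under some scalings, and open circles mark hairpins without a read in at least 1 GFP+ library, whose values depend on the pseudocount.

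Of the other microRNAs with the miR-92 seed, miR-25 has no hairpin in the chicken-aligned table. gga-mir-32 stayed below the filter, at 0 to 4.33 normalized reads. gga-mir-367, which lies with miR-302, stood at 35.5, 15.2 and 26.8 normalized reads in knockdown GFP+ and 27.4, 20.6 and 37.8 in knockdown GFP- cells, where the ranges overlapped (log2 fold -0.18, limma adjusted p = 0.982). With overexpression it had no read in any GFP+ library and 27.3, 17.2 and 13.9 normalized reads in GFP- cells. limma called this a fall (adjusted p = 0.000687; edgeR adjusted p = 0.0466; DESeq2 adjusted p = 0.0986). The limit that a count of 0 allows, 3 reads, equals 20.1, 73.1 and 47.6 normalized reads in GFP+ replicates 1 to 3. Over the group it equals 11.8 normalized reads, below all 3 GFP- values. As a share it is 0.0432% of hairpin reads, above the 0.0370% in the GFP- reads pooled over libraries. Replicate 3 gave 97 of the 125 pooled GFP- reads of gga-mir-367. The bound thus depends on the scale and on the pooling, and no fold is given.

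hsa-mir-92b, a further miR-92 seed hairpin that is listed in the human-aligned table, had log2 folds above 0 in both arms, but neither was called. It stood at 262, 148 and 378 normalized reads in knockdown GFP+ and at 155, 131 and 95.5 in knockdown GFP- cells, which overlapped. With overexpression it stood at 386, 193 and 604 in GFP+ (49, 5 and 33 reads) and at 162, 112 and 185 in GFP- cells, with every GFP+ library higher, as for 10.5% of human-aligned hairpins. The log2 folds were 0.97 (SE 0.46, limma adjusted p = 0.257) and 1.24 (SE 0.46, adjusted p = 0.0855), and neither passed. Human-aligned miR-25, which has the miR-92 seed, was low together with its cluster partners miR-93 and miR-106b, which do not share that seed. None of the 3 reached the filter. They summed to 16.8 to 29.4 normalized reads in knockdown GFP+ and 4.18 to 9.29 in knockdown GFP- cells. In the overexpression arm they had no read in GFP+ libraries and summed to 0 to 6.28 in GFP- cells. The limit of 3 reads equals 23.6, 116 and 54.9 normalized reads in overexpression GFP+ replicates 1 to 3. This lies above those GFP- sums, so the missing reads cannot be read as a fall. Which chicken sequence gave reads to these human hairpins cannot be told from the tables.

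The human-aligned table gave the members the same order and, for miR-363, the same picture. hsa-mir-363 stood at 324, 394 and 326 normalized reads in knockdown GFP+ and at 622, 643 and 753 in knockdown GFP- cells. It stood at 331, 271 and 147 in overexpression GFP+ and at 671, 575 and 784 in overexpression GFP- cells. The groups did not overlap in either arm, and the log2 folds were -0.95 (SE 0.29, limma adjusted p = 0.0747) and -1.50 (SE 0.29, adjusted p = 0.00463), so 0 and 1 of 3 members were called. No edgeR value is given for these human-aligned members. Called falls made up 0% and 11.4% of the 114 hairpins tested there, and groups with all GFP+ libraries lower 21.1% and 17.5%. Its share of the members' reads was 5.63% ± 0.98 and 10.1% ± 1.81 in knockdown GFP+ and GFP- cells and 4.63% ± 1.85 and 9.77% ± 2.32 in the overexpression arm, higher than in the chicken-aligned table throughout. hsa-mir-92a-1 supplied 17.1 to 25.5% of the miR-92a reads, less than its chicken counterpart. The 3 hairpins held 21.2 to 30.9% of the human-aligned reads in the knockdown and 26.3 to 34.8% in the overexpression arm, and here the arms overlapped. Both tables come from the same reads, so the second is a check of the alignment and no further replicate.

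The microRNAs whose levels were most like those of the members differed from member to member. Likeness was the Pearson correlation of log2 levels over the 12 libraries, among 74 other tested hairpins with a read in every library. The 12 points share libraries, scaling factors and the GFP groups, so the values are a description. gga-mir-363 was closest to gga-mir-26a-2 (r = 0.885), gga-mir-218-1 (0.876) and gga-mir-218-2 (0.861), gga-mir-92-2 to gga-mir-130a (0.797), gga-mir-222a (0.752) and gga-mir-16-1 (0.611), and gga-mir-92-1 to gga-mir-1674 (0.772), gga-mir-210a (0.604) and gga-mir-16-2 (0.562). The hairpins closest to the miR-92 copies had lowest counts of 1 to 4 reads in overexpression GFP+ libraries, so these correlations rest partly on few reads. Among the members r was 0.546 between the miR-92 copies and 0.036 between gga-mir-92-1 and gga-mir-363. It was 0.405 between gga-mir-92-2 and gga-mir-363, its neighbour in the cluster. The median r of the 74 candidates was -0.139 for gga-mir-92-1, 0.093 for gga-mir-92-2 and -0.038 for gga-mir-363. The closest hairpins were picked as the highest of these candidates, so lower values between members are not read as less likeness. As a description of the closest, gga-mir-26a-2 stood at 462, 577 and 554 normalized reads in knockdown GFP+ and at 686, 661 and 868 in knockdown GFP- cells, without overlap. It stood at 715, 341 and 365 in overexpression GFP+ and at 809, 626 and 946 in overexpression GFP- cells, which overlapped. The miR-218 hairpins lie in SLIT genes and are known from motor neurons in vertebrates. gga-mir-218-1 stood at 69.3, 119 and 99.8 normalized reads in knockdown GFP+ and 221, 225 and 151 in knockdown GFP- cells, and at 100.3, 24.4 and 47.6 against 203, 207 and 224 in the overexpression arm, where the lowest GFP+ value is 1 read. Both hairpins were chosen for their likeness to gga-mir-363 in these libraries, so their GFP+ and GFP- values support nothing further.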

How the data were processed

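Small RNA was sequenced from 12 libraries. The submitters' processing notes name FastQC 0.11.5, cutadapt, STAR 2.7.0f and hg38; they name neither a chicken build nor a counting step. Normalized signal came in 2 tables that the authors deposited. All values above 0 were whole multiples of 1 step per library (tolerance 0.001 reads), so whole reads were recovered. The steps equal median-of-ratios size factors over 78 chicken hairpins read in every library. Of 911 chicken entries, 61 repeated a name, and the first entry of each name was kept. No mature arm was above 0.

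Log2 values (pseudocount 1) of 132 hairpins were fitted in limma 3.58.1 (4 group means, trend) and called at a Benjamini-Hochberg adjusted p under 0.05; edgeR 4.0.16 and DESeq2 1.42.0 on recovered reads, other scalings and filters, the replicate block and leaving out libraries were alternatives. Ratios used exact permutation tests. Same-numbered libraries of an arm deviated together (correlations 0.111 to 0.379 in all 6 pairs), although 2 pairs of different numbers reached 0.113 and 0.192. The titles' numbers were taken as pairs in the replicate block, the sign-flip tests and the difference of the effects in the ratios. The main limma fit and the other permutation tests did not use the pairs. Named were the members, the hairpins of their seed and clusters, the 3 hairpins most like each member and the 5 most abundant. Members, lists and tests were chosen with earlier results of these data known. RefSeq names matched 779 of 850 hairpins. Scripts were tested on simulated data, where limma called unchanged hairpins more often than edgeR in the shallow overexpression arm. Another deposited sheet was not used.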

Additional observations from a re-analysis of the deposited data

How the results depend on the processing

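The fall of gga-mir-363 in the overexpression arm kept its direction under every alternative run and its call under all but scaling by totals, where 0 members were called. In the knockdown arm its direction was likewise kept, but 0 members were called with no filter, TMM scaling, scaling by totals, edgeR, the replicate block or the human-aligned table, and 0 to 1 with 1 library left out. The replicate block changed no other call on a member. In GFP+ cells scaling by totals called 1 member between the arms, gga-mir-92-1 (limma adjusted p = 0.0216). In the knockdown arm falls were called for 3.03% of tested hairpins by edgeR and for 0% of those in the human-aligned table. For the other settings named here the share of all hairpins called is not given, so the counts are a description only. The cause of these changes in calls was not tested.

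Uncalled log2 folds near 0 changed sign. For gga-mir-92-1 in the knockdown arm they were 0.11 with TMM, 0.023 with totals, 0.11 with edgeR and -0.16 to 0.058 with 1 library left out, and for gga-mir-92-2 0.020 with TMM and 0.034 with edgeR. In the overexpression arm gga-mir-92-1 was at 0.35 with totals, 0.020 with edgeR and -0.19 to 0.11 with 1 library left out, and gga-mir-92-2 at 0.10 with totals. The difference of these effects was -0.13 with TMM, -0.089 with edgeR, -0.11 in the human-aligned table and -0.14 to 0.17 with 1 library left out for gga-mir-92-1, and 0.16 with totals for gga-mir-92-2. Between the GFP- cells of the arms gga-mir-363 was at -0.026 with TMM, -0.029 with edgeR and -0.11 to 0.18 with 1 library left out. Between the GFP+ cells gga-mir-92-2 was at 0.55 with totals, 0.0048 with DESeq2 and -0.15 to 0.10 with 1 library left out, and gga-mir-363 at 0.17 with totals.

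The lower miR-363 to miR-92 ratio in GFP+ cells kept its direction in each arm and over both under every alternative run. Between GFP- cells of the arms that ratio ran from -0.31 to 0.062 with 1 library left out. The arms' difference in the copy ratio was 0.39 with pooled reads. The library share in the knockdown arm was 0.15 without let-7 and miR-122 in the denominator and -0.19 to 0.043 with 1 library left out. In the overexpression arm it was -0.12 in the human-aligned table and -0.053 without miR-302 and miR-367, over both arms -0.12 and -0.16 in these settings and -0.025 to 0.089 with 1 library left out, and the difference of the arms was -0.014 in the human-aligned table.

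A replicate block could not be fitted between the arms, whose pairs are nested, nor for differences between the effects of the arms in the ratios, and a fit on the compared groups alone could not be made for the difference of the effects. Depth limits the overexpression GFP+ libraries, where miR-363 rests on 9 to 43 reads.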
